A study of Mus musculus with 2 samples.

Results

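Retinoic acid, the active form of vitamin A, was examined here through 9 genes that carry vitamin A to cells, convert it to retinoic acid, bind it and break it down. They are Rbp4, Stra6, Rdh10, Aldh1a1, Aldh1a2, Aldh1a3, Crabp1, Crabp2 and Cyp26a1, picked by symbol, and all 9 were found among the 22740 genes of the expression table. RNA sequencing was done on the whole uterus of 2 independent wild-type C57BL/6 mice on day 4 of pregnancy, with 1 library per animal. Both libraries belong to a single group with no treatment or mutant, so the data give levels and the agreement of 2 animals, and no test between conditions. Values are the authors' RPKM, read counts scaled by transcript length and by library size, which makes the levels of different genes comparable per length. The whole organ was sequenced, so fewer cells of a type and less RNA per cell cannot be told apart.

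Retinol, the alcohol form of vitamin A, travels in blood bound to its carrier protein and enters cells through a membrane receptor. Inside the cell a dehydrogenase oxidises retinol to retinal, and a retinal dehydrogenase then makes retinoic acid. Small cytosolic proteins hold retinoic acid, nuclear receptors (RAR paired with RXR) respond to it at target genes, and CYP26 enzymes degrade it. In the mouse uterus the pathway is known as one that is regulated by ovarian hormones around implantation.

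One enzyme for each oxidation step (Aldh1a2 and Rdh10) and the retinol receptor gene Stra6 were the most abundant of the 9, and the binding proteins and the degrading enzyme were low. Aldh1a2 was highest at 48.2 ± 2.70 RPKM (SD, n = 2), followed by Rdh10 at 32.2 ± 9.28 RPKM and Stra6 at 17.9 ± 2.80 RPKM. The other 6 lay at or below 5.10 RPKM, and Crabp2 and Aldh1a3 stayed under 1 RPKM in both uteri. At 1 RPKM or more in both uteri, 7 of the 9 were detected (77.8%), against 58.4% of all genes. The median of the 9 was 3.52 ± 0.427 RPKM, beside 3.26 ± 0.0405 RPKM over all genes.

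**Figure D1:**
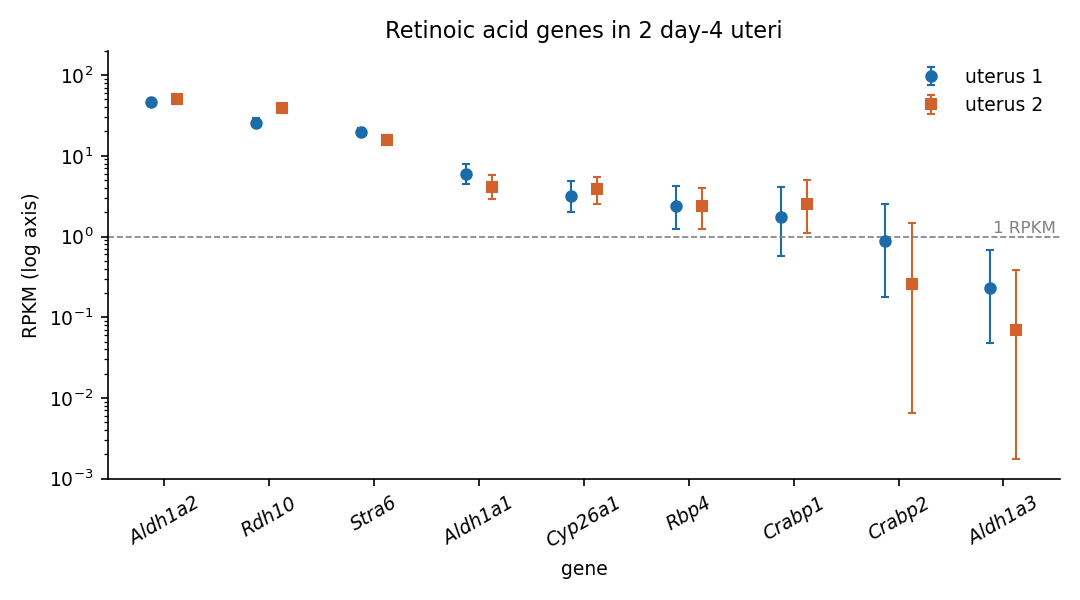
RPKM on a log axis for each of the 9 genes, with circles for uterus 1 and squares for uterus 2. Bars are exact Poisson 95% intervals of the recovered reads and cover counting error only. Aldh1a2, Rdh10 and Stra6 lie above 15 RPKM in both uteri, and the intervals widen to the right, where Crabp2 and Aldh1a3 rest on 3 reads in uterus 1 and 1 read in uterus 2.

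The number of reads behind each value was recovered from the RPKM values and transcript lengths, and it set how firmly a level is known. The totals recovered were 3800882 reads (uterus 1) and 4223002 reads (uterus 2). The 3 high genes held between 226 and 483 reads in each library, whereas Rbp4, Crabp1, Crabp2 and Aldh1a3 held 13 or fewer. Intervals given with a level below are exact Poisson 95% intervals of these reads, which leave out variation between animals and the copying of molecules by PCR.

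The labelled tissue was checked against markers. All 7 stromal, all 5 epithelial, all 5 smooth muscle and all 4 endothelial markers reached 1 RPKM in both uteri, as did 3 of 4 gland, 5 of 6 mesothelial and 2 of 4 leukocyte markers. Of markers for tissue that could adhere to or lie in the organ, 1 of 8 liver, 0 of 6 fat, 2 of 6 ovarian, 1 of 2 oviductal, 0 of 4 blastocyst and 1 of 3 decidual genes did. The gland list had the largest ratio between the libraries among lists above a summed 10 RPKM, with 53.6 (uterus 1) and 83.0 RPKM (uterus 2).

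Supply of retinol came first in the pathway. Rbp4 (NM_011255, chr19:38191110-38199301, minus strand, build mm9) encodes the plasma retinol carrier, which is made mainly in liver and fat. It lay at 2.41 (uterus 1) and 2.36 RPKM (uterus 2), on 12 and 13 reads, a mean of 2.38 ± 0.0411 RPKM. The 2 uteri were nearly equal, but counting error alone allows 1.25 to 4.22 RPKM in uterus 1 and 1.25 to 4.03 RPKM in uterus 2. Among liver markers, Alb, the main serum protein gene, was listed at 0 in uterus 1 and had 1 read in uterus 2, and Apoa1, Apoa2, Fgb and Ahsg were listed at 0 in both. Serpina1a had 13 and 5 reads (1.75 and 0.606 RPKM) and Apob 25 and 24 reads (0.469 and 0.405 RPKM). The fat markers Adipoq, Cidec and Cfd were also listed at 0 in both, and Fabp4 had 4 reads and 1 read (1.63 and 0.367 RPKM). Ttr, whose protein binds the loaded carrier in plasma, made up most of the summed liver markers (6.49 and 6.51 RPKM) at 4.27 and 5.39 RPKM, and the fat markers summed to 1.71 and 0.489 RPKM. A noncoding transcript overlaps Ttr in the annotation, so its reads are uncertain.

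Stra6 (NM_001162476, chr9:57981882-58001804, plus strand) encodes the membrane receptor that takes retinol from the carrier. It lay at 19.8 (uterus 1) and 15.9 RPKM (uterus 2), on 277 and 246 reads, and thus 8.22-fold and 6.74-fold above Rbp4. Its intervals, 17.6 to 22.3 and 13.9 to 18.0 RPKM, overlapped slightly. Its mean stood at the 80.7th percentile of all genes. The lower value in uterus 2 was 0.800-fold (95% interval 0.671 to 0.953 from reads). An exact binomial test on reads gave p = 0.0111, and 0.139 after Benjamini-Hochberg adjustment over 15143 genes, so the difference did not pass.

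Rdh10 (NM_133832, chr1:16095963-16122631, plus strand) encodes the retinol dehydrogenase that catalyses the first oxidation step in the embryo, from retinol to retinal. It lay at 25.7 (uterus 1) and 38.8 RPKM (uterus 2), on 226 and 379 reads. Uterus 2 was higher, with intervals of 22.4 to 29.3 and 35.0 to 42.9 RPKM that did not overlap. The fold was 1.51 (95% interval 1.28 to 1.79 from reads), and the exact binomial test gave an adjusted p of 6.7e-05. The test compares these 2 libraries and not a condition, and like the intervals it covers counting error only. It called 4.68% of the 15143 genes tested and, of the 7 retinoic acid genes with at least 6 reads in sum, only Rdh10, a count too small to read against that share. Of 2278 genes within 1.5-fold of its mean level, 1.71% were at least as far apart between the uteri.

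The gland markers Foxa2 (3.07 and 5.19 RPKM), Spink3 (46.4 and 71.8 RPKM) and Prss29 (3.31 and 4.97 RPKM) were also higher in uterus 2. Their reads were 25 and 47, 75 and 129, and 15 and 25. The exact binomial test called 0 of the 4 gland markers after adjustment. All 4 hold fewer reads than Rdh10 (226 and 379), so the test could miss a fold of the same size. The absence of calls thus does not show equal gland content. Epithelial markers summed to 244 and 279 RPKM, and the test called 1 of 5, higher in uterus 2. Stromal markers summed to 4274 and 4186 RPKM, but 6 of 7 had the higher value in uterus 2, and the sum was lower there through Col1a1 (1184 and 851 RPKM). The test called 3 of the stromal markers, 2 of them with more in uterus 2 and 1 with less, where 4.68% of all genes were called. It also called 2 of 5 smooth muscle markers, 1 each way (sums of 1741 and 1737 RPKM), and 1 of 4 endothelial markers, lower in uterus 2 (sums of 135 and 131 RPKM). The part of these cell types in the Rdh10 difference was not tested.

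For the next step, from retinal to retinoic acid, 1 of 3 related enzymes made up most of the RNA. Aldh1a2 (NM_009022, chr9:71063596-71144050, plus strand) encodes the retinal dehydrogenase known from mesoderm and stroma. It lay at 46.3 (uterus 1) and 50.1 RPKM (uterus 2), on 402 and 483 reads, with intervals of 41.9 to 51.1 and 45.8 to 54.8 RPKM. Both uteri were high, and the difference of 1.08-fold (95% interval 0.946 to 1.24 from reads) had an adjusted p of 0.669 in the exact binomial test. The mean stood at the 94.5th percentile, rank 1252 of all genes.

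Aldh1a1 (NM_013467, chr19:20676472-20717952, plus strand) encodes a second retinal dehydrogenase, known from epithelia. It lay at 6.03 (uterus 1) and 4.16 RPKM (uterus 2), on 47 and 36 reads. Uterus 1 was higher by 1.45-fold, but the intervals of 4.43 to 8.02 and 2.92 to 5.76 RPKM overlapped and the adjusted p of the exact binomial test was 0.451. Aldh1a3 (NM_053080, chr7:73535779-73572363, minus strand), the third enzyme, lay at 0.230 RPKM on 3 reads and 0.0691 RPKM on 1 read. Both values of Aldh1a3 are at or under the 3 reads that a count of 0 allows, so no difference was detectable at this depth.

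Of the summed RPKM of the 3 enzymes, Aldh1a2 held 88.1% in uterus 1 and 92.2% in uterus 2, a mean of 90.2% ± 2.92. Aldh1a1 held 11.5% and 7.66%, and Aldh1a3 0.438% and 0.127%. Aldh1a2 exceeded Aldh1a1 7.68-fold in uterus 1 and 12.04-fold in uterus 2. The family total itself was steady, at 52.6 and 54.4 RPKM.

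Retinoic acid binding proteins were low. Crabp1 (NM_013496, chr9:54612615-54620916, plus strand), which encodes a cytosolic protein that holds retinoic acid and is linked to its breakdown, lay at 1.76 RPKM on 5 reads and 2.54 RPKM on 8 reads. Crabp2 (NM_007759, chr3:87752615-87757294, plus strand), which encodes the binding protein that delivers retinoic acid to RAR, lay at 0.869 RPKM on 3 reads and 0.261 RPKM on 1 read. Uterus 1 was low for the first and high for the second, but all 4 counts are small. The Crabp1 interval ran from 0.571 to 4.11 RPKM in uterus 1 and the Crabp2 interval from 0.179 to 2.54 RPKM. These intervals overlapped and did not separate the 2 genes there. Their summed level was 2.63 and 2.80 RPKM.

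Fabp5, which encodes a fatty acid binding protein that can carry retinoic acid to another nuclear receptor, lay at 21.3 and 21.4 RPKM on 78 and 87 reads. It lay above the upper bounds of the Crabp2 intervals, 2.54 RPKM in uterus 1 and 1.45 RPKM in uterus 2.

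Breakdown was represented mainly by 1 enzyme. Cyp26a1 (NM_007811, chr19:37772298-37776026, plus strand) encodes a cytochrome P450 that oxidises retinoic acid. It lay at 3.22 (uterus 1) and 3.83 RPKM (uterus 2), on 22 and 29 reads, with overlapping intervals of 2.02 to 4.88 and 2.56 to 5.49 RPKM. The adjusted p of the exact binomial test was 0.896, and counting error leaves a fold between 0.659 and 2.17. Cyp26b1 lay at 0.323 and 0.630 RPKM on 6 and 13 reads, and Cyp26c1 at 0.168 and 0.302 RPKM on 1 and 2 reads. Of the 3 enzymes' summed RPKM, Cyp26a1 held 86.8% and 80.4%. Aldh1a2 exceeded Cyp26a1 14.4-fold in uterus 1 and 13.1-fold in uterus 2.

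The 3 genes Cyp26c1, Cyp26a1 and Rbp4 lie near each other on chromosome 19. The deposited coordinates leave 4500 bases between Cyp26c1 and Cyp26a1, which face the same way, and 415083 bases between Cyp26a1 and Rbp4.

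Cyp26a1 is a known target of the hormone it degrades, and the sequence before its start holds a repeat of the kind that retinoic acid receptors are known to bind. The 250 bases upstream of its RefSeq start are printed because they carry this element. They lie at chr19:37697558-37697807, plus strand, on GRCm38.p6, and an exact and single match placed them at chr19:37772048-37772297 on NCBIM37 (mm9), directly before the deposited start. Capitals mark the 2 hexamers of the element.
Cyp26a1 upstream: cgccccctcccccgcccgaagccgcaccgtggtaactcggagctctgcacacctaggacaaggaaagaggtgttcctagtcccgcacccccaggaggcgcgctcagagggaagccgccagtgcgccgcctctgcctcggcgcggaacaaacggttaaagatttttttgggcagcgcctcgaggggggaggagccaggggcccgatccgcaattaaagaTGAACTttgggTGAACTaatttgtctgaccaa

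The element is a direct repeat of 2 receptor hexamers with 5 bases between them (DR5), the arrangement classically bound by RAR and RXR. The hexamers searched were AGGTCA with its variant GGGTCA, together with AGTTCA and likewise the variant GGTTCA, on both strands, as single matches and as repeats with 1, 2 or 5 bases between (DR1, DR2 and DR5). A single hexamer is thus also counted within each repeat. In Cyp26a1 the DR5 spans positions -32 to -16 relative to the RefSeq start (chr19:37697776-37697792, GRCm38.p6) and reads in the hexamer direction on the strand opposite to the gene. The only other DR5 in the pathway lay before Rarb, the gene of a retinoic acid receptor, at positions -53 to -37 (chr14:16575513-16575529, GRCm38.p6, minus strand). Both are printed in the hexamer direction, with capitals for the hexamers: 15 of 17 bases were identical. The hexamers searched share most of their bases, so part of this identity was set by the search.
Cyp26a1 DR5: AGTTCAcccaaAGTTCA
Rarb DR5: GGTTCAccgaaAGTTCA

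RefSeq promoter windows (250 bases before to 50 after a start, GRCm38.p6) matched 6 of the 9 genes, with 11 windows. Rdh10, Aldh1a3 and Crabp2 were not analysed for this. A DR5 was found in 32 of all 32851 windows (0.0974%), and DR1 and DR2 repeats, which occurred in 0.222% and 0.268% of all windows, in none of the 11. Single hexamers were common, in 43.7% of all windows and in 4 of the 11. Apart from Cyp26a1, they lay in 1 window each of Aldh1a1 (positions -49 to -44), Rbp4 (-53 to -48) and Stra6 (16 to 21). Aldh1a2 and Crabp1 held none in their windows. A match describes letters and is not a measured binding site, and Cyp26a1 and Rarb are textbook carriers of this element.

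**Figure D2:**
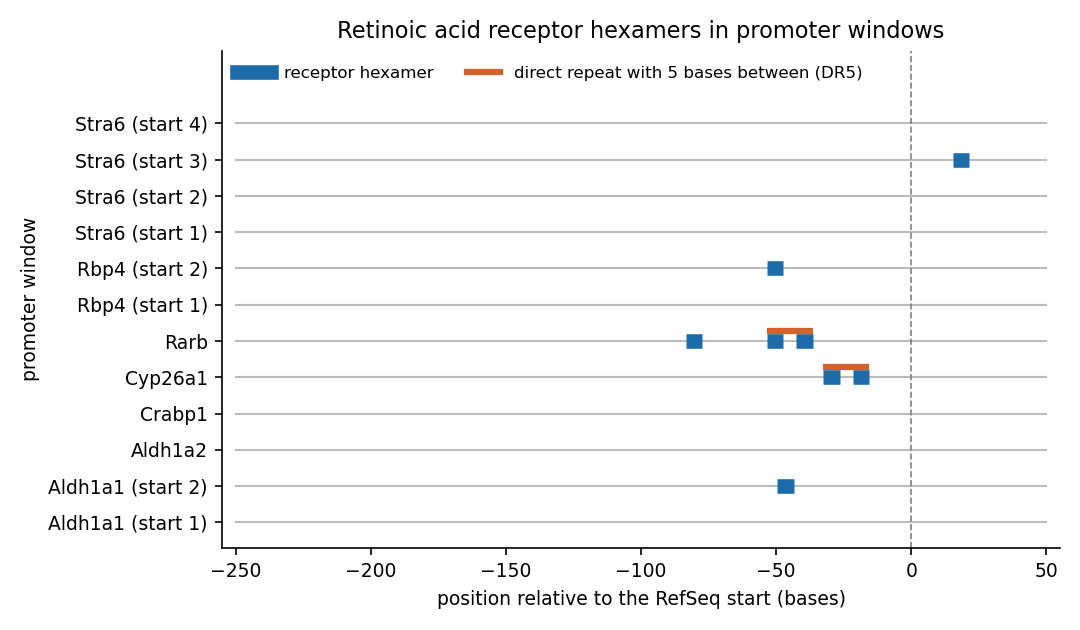
Position of receptor hexamers (blue) and DR5 repeats (orange) in each RefSeq promoter window of 6 of the 9 genes and of Rarb, in bases from the RefSeq start (dashed line). Genes with several starts have a line for each; DR5 repeats appear only in Cyp26a1 and Rarb among the lines drawn.

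Levels of the 2 genes with a DR5 were close. Rarb lay at 2.63 and 3.98 RPKM on 28 and 47 reads (adjusted p 0.414, exact binomial test), beside 3.22 and 3.83 RPKM for Cyp26a1. Neither difference between the uteri passed the exact binomial test, so no shared direction is read.

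Across the 9 genes the order of levels was Aldh1a2, Rdh10, Stra6, Aldh1a1, Cyp26a1, Rbp4, Crabp1, Crabp2 and Aldh1a3. The order was the same in uterus 1, and in uterus 2 only Rbp4 and Crabp1 traded places. The first 4 were separated from each other in both libraries, with counting intervals that did not overlap between neighbours. Each later pair of neighbours, from Aldh1a1 and Cyp26a1 onward, had overlapping counting intervals in both uteri, so these intervals did not separate them. Overlap does not show equal levels, and neighbours were not tested against each other. Aldh1a1 and Cyp26a1, for example, differed 1.87-fold in uterus 1 and 1.09-fold in uterus 2.

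**Figure D3:**
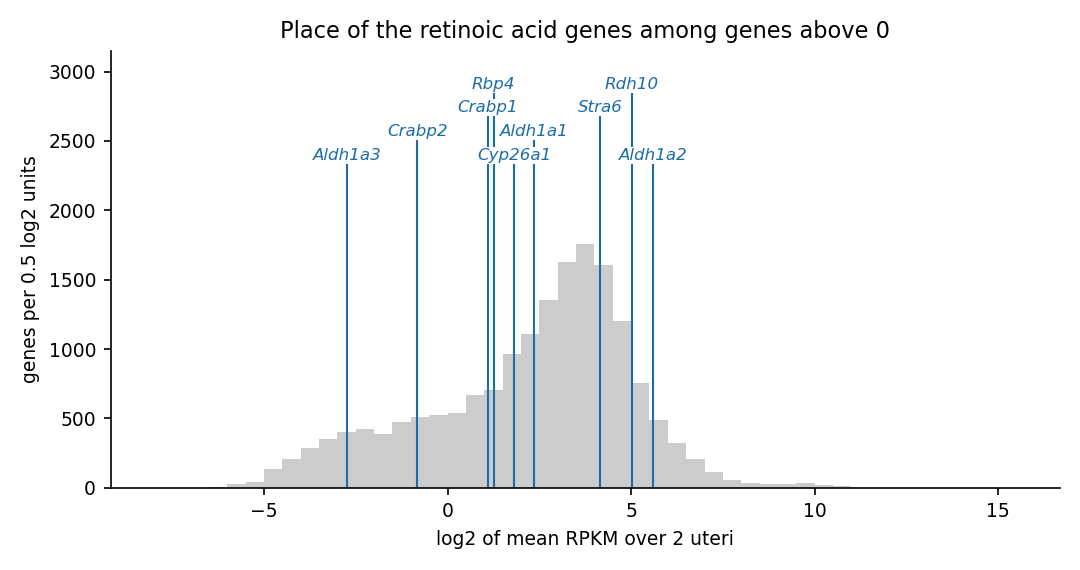
Number of genes per 0.5 units of log2 mean RPKM among genes above 0 (grey), with lines at the mean of each of the 9 genes. Aldh1a2 and Rdh10 stand in the upper shoulder, at the 94.5th and 90.8th percentiles of all 22740 genes, and Crabp2 and Aldh1a3 in the lower tail, at the 36.3rd and 28.9th.

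The agreement of the 2 animals was then taken over the set. Each ratio is uterus 2 divided by uterus 1 on the log2 scale with 0.1 RPKM added, which understates the change of low genes. Ratios were read where the mean reached 1 RPKM. Of the 7 retinoic acid genes at that level, 0 were at least 2-fold apart, against 2.6% of 13647 genes. Their ratios ran from -0.52 for Aldh1a1 to 0.59 for Rdh10, with a median of 0.11 beside 0.00067 over all genes. Crabp1 had 0.50, Cyp26a1 0.24, Aldh1a2 0.11, Rbp4 -0.03 and Stra6 -0.32. Apart from Rdh10, none of these ratios passed the exact binomial test, and their signs are not read as directions. Below the level limit, Crabp2 and Aldh1a3 each had 3 reads in uterus 1 and 1 read in uterus 2, a 3.33-fold difference for both, and their ratios of -1.42 and -0.97 differ only through the added 0.1 RPKM.

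**Figure D4:**
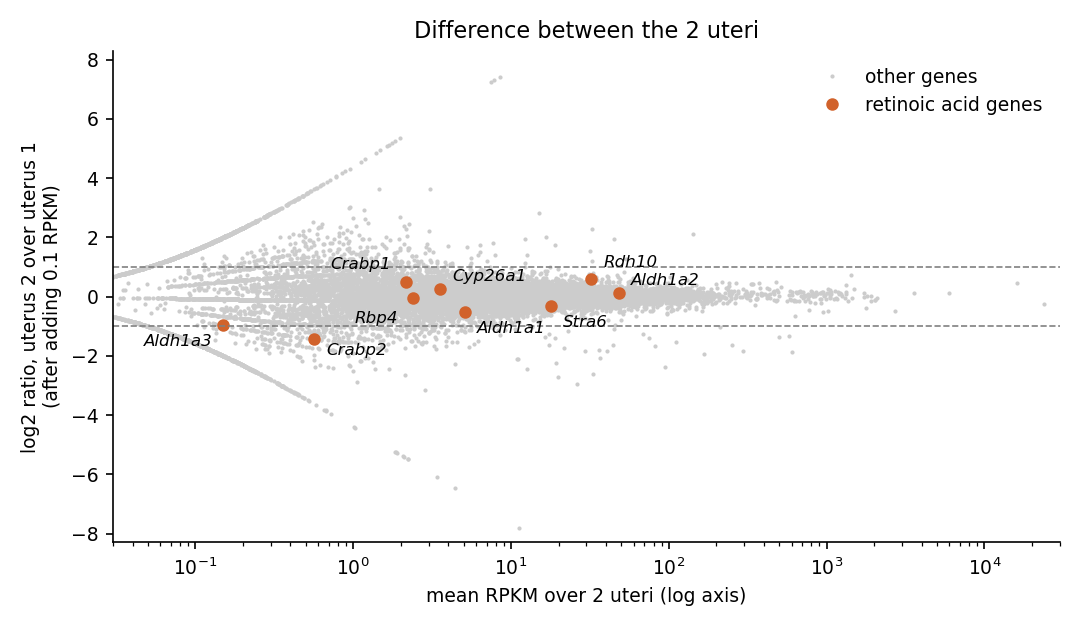
Log2 ratio of uterus 2 over uterus 1 against mean RPKM (log axis) for every gene above 0 (grey) and the 9 retinoic acid genes (orange), with dashed lines at a 2-fold difference. Rdh10, at 0.59, stands at the upper edge of the genes of its level, and Crabp2 lies outside the lines, while Aldh1a3, with the same reads, lies inside them only through the 0.1 RPKM added to both values.

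Other genes of the pathway, 48 in a list that spans uptake, oxidation, breakdown, receptors and targets, had a mix of high and absent members. At 1 RPKM or more in both uteri, 28 of 48 were detected (58.3%, against 58.4% of all genes), and 9 were listed at 0 in both. The exact binomial test called 3 of the 36 with enough reads, all higher in uterus 2, against 2.15% of all genes in that direction. Over both directions it called 4.68% of all genes. The 3 calls are too few to read against either share.

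In uptake and storage, 6 of 12 were detected. Lrp2, which encodes the endocytic receptor megalin that can take up the retinol carrier, was highest at 87.7 and 105 RPKM, 4.42-fold and 6.59-fold above Stra6. Its reads, 5199 and 6884, differed between the libraries (adjusted p 3.1e-19, exact binomial test), although by 1.19-fold only. Dgat1, an acyltransferase that can esterify retinol, lay at 11.4 and 10.98 RPKM. Bco2, which encodes a carotenoid-cleaving enzyme, was 2-fold apart or more at 0.754 and 2.04 RPKM, but on 6 and 18 reads and with an adjusted p of 0.281 in the same exact test.

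Oxidation and reduction between retinol and retinal had 12 of 19 detected. Adh5 and Adh1, alcohol dehydrogenases that can act on retinol among other alcohols, lay at 91.9 and 85.2 RPKM and at 40.3 and 41.4 RPKM. Noncoding transcripts overlap Adh1 and Akr1b7 in the annotation, and the use of strand in counting is not given in the sources used here, so the reads of both are uncertain. Akr1b7 was 2-fold apart at 1.67 and 0.753 RPKM on 8 and 4 reads, with an adjusted p of 0.665 in the exact binomial test.

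Dhrs3 encodes the enzyme that reduces retinal back to retinol, the reverse of the RDH10 reaction. It lay at 18.4 (uterus 1) and 29.7 RPKM (uterus 2), on 127 and 227 reads. Uterus 2 was higher, as for Rdh10, and the exact binomial test gave an adjusted p of 0.00091. The ratio of Rdh10 to Dhrs3 was 1.39 in uterus 1 and 1.31 in uterus 2. The marker values given beside Rdh10 stand beside Dhrs3 too: 0 of 4 gland markers, 2 of 7 stromal markers and 1 of 5 epithelial markers were called higher in uterus 2. The gland markers were higher there on few reads, so their lack of calls does not show equal gland content. The part of these cell types was not tested. Rdh1, named after its value was seen because it was the remaining called gene, lay at 2.08 and 4.05 RPKM on 31 and 67 reads (adjusted p 0.0387, exact binomial test). Rdh1 belongs to a cluster of similar genes and overlaps Rdh9 in the annotation, so its reads are uncertain.

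Of the 6 nuclear receptors, 5 were detected. Rarg lay at 15.4 and 17.6 RPKM, Rara at 10.04 and 9.38 RPKM and Rarb lowest of the RAR genes, so Rarg held 54.9% and 56.8% of their summed RPKM. Rxra lay at 16.04 and 15.4 RPKM and Rxrb at 15.3 and 15.8 RPKM, nearly equal in both uteri. A small nuclear RNA gene overlaps Rara in the annotation, so the reads of Rara are uncertain. Rxrg was listed at 0 in uterus 1 and had 2 reads in uterus 2. The exact binomial test called 0 of the 5 receptors with enough reads, with adjusted p-values from 0.414 for Rarb to 1 for Rxrb.

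Known retinoic acid target genes, counted without Cyp26a1, Stra6 and Crabp2, were detected in 6 of 11 cases. The highest were Tgm2, a transglutaminase, at 175 and 177 RPKM, Rarres2, which encodes the secreted protein chemerin, at 68.5 and 65.0 RPKM, and Dhrs3. Tgm2 and Rarres2 each overlap another gene in the annotation, so part of their reads may be shared. Of the 8 genes in this list with enough reads, the exact binomial test called 1, Dhrs3, too few to read against the 4.68% over all genes, and Tgm2 and Rarres2 differed by less than 1.1-fold.

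**Figure D5:**
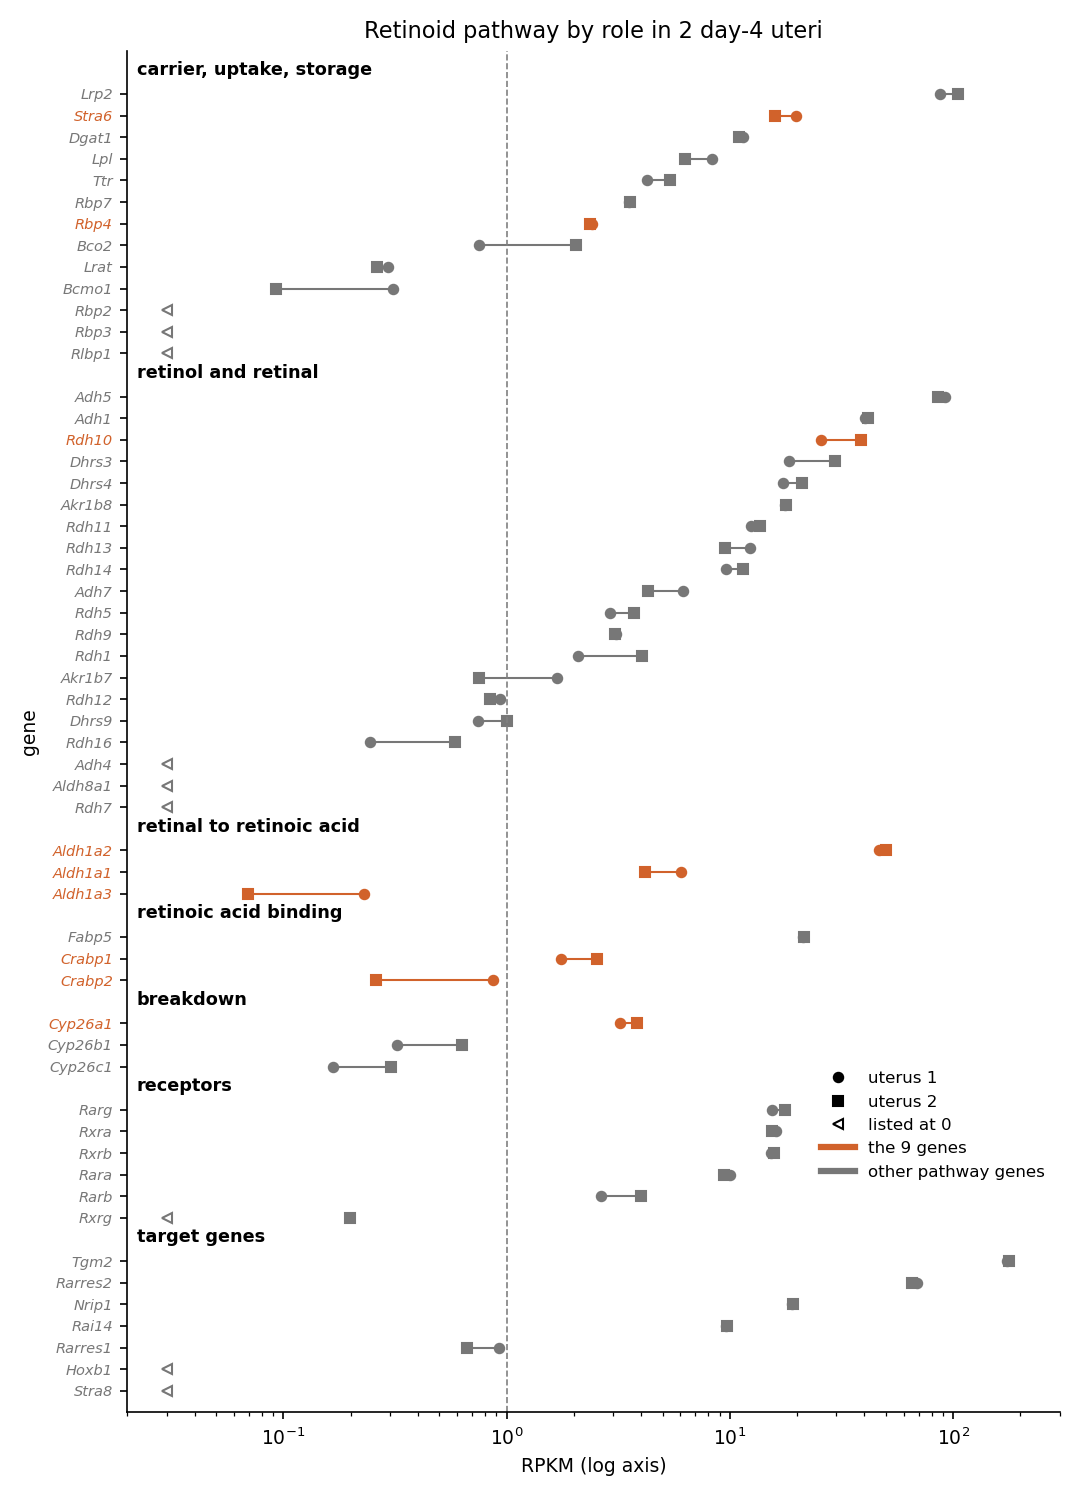
RPKM on a log axis for the 9 genes (orange) and other retinoid pathway genes (grey) in 7 roles, with circles for uterus 1, squares for uterus 2 and open triangles at the left edge for values listed at 0. Each role has at least 1 gene above 1 RPKM in both uteri, and the widest gaps between animals lie at low levels.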

How the data were processed

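The authors took RNA with TRIzol and built TruSeq RNA libraries, per the labels' protocols. Expression was deposited as RPKM, per the series' design text. The submitters' processing notes name TopHat, edgeR and mm9; counting program and strand use are not given in the sources used here.

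RPKM multiplied by the deposited span gave whole reads, within 1e-06 of a read, in 291 of 295 short entries (span under 400 bases) of uterus 1 and 296 of 299 of uterus 2. This gave scaling totals of 3834174 and 4256101. All 17426 genes above 0 then came out as whole reads over a whole length, within a relative 1e-11. The common factor came from a GENCODE M1 transcript fitted to the deposited ends (13476 genes, 7 of the 9), from the nearest length (2745, among them Stra6 and Rbp4), or was set to its smallest value (1205).

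Reads were compared by a two-sided exact binomial test over genes with at least 6 reads in sum, with Benjamini-Hochberg adjustment and a threshold of 0.05 (Python 3.11.15, scipy 1.17.1), checked on simulated data. Named genes are the 9, all receptors and CYP26 genes, and in each other group the 3 highest and any 2-fold apart; Rdh1 and the markers given beside a result fall outside this rule. The 9 genes and all lists were chosen with earlier results of these data known. Single values of 2 pathway genes that the rule would name or the plot by role would show are not reported here. Protein sequences were not used here.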

Additional observations from a re-analysis of the deposited data

How the results depend on the processing

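No paired analysis was possible because both libraries form a single group. The 7 detected genes became 6 at 2 RPKM and stayed 7 at 0.5 RPKM, at a TPM of 1 and in either uterus alone. Of the other pathway genes, 28 to 33 were detected under the same settings. The count of genes at least 2-fold apart was 0 with pseudocounts of 0.01 and 1, on the TPM scale and after centring, and 1 (Crabp2) with no filter on low values, since that adds the 2 genes below the limit. The other of them, Aldh1a3, has the same 3.33-fold difference in RPKM and stays uncounted only through the pseudocount. That setting also turned the sign of the median ratio, to -0.03. Rdh10 remained the 1 called gene of the 9 with the smallest possible reads (adjusted p 7.3e-05) and with trimmed scaling (6.7e-05), both by the exact binomial test. These settings called 581 and 709 genes in all, against 709. Leaving out either uterus gave shares from 88.1% to 92.2% for Aldh1a2, 66.9% to 90.7% for Crabp1 and 80.4% to 86.8% for Cyp26a1. Percentiles taken only among genes above 0 in both libraries were lower for all 9 by construction, at 92.2 for Aldh1a2 and 1.99 for Aldh1a3. TPM raised all 9 levels by a common factor in each library, to 114 for Aldh1a2 and 0.354 for Aldh1a3.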
